A study of Mus musculus with 4 samples.

Results

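The unfolded protein response of the endoplasmic reticulum (ER) and the integrated stress response are described here in young and old intestinal stem cells (ISCs). The 36 genes were taken by their symbols from a written list, and all 36 are among the 52459 genes of the count table. RNA of small-intestinal ISCs of wild type (WT) C57/Bl6 mice was sequenced as full-length libraries after SPIA (a linear cDNA amplification). The groups were ISC_2mth, 2 pools from mice of 2 months (young), and ISC_22mth, 2 pools from mice of 22 months (old), and each pool held cells of 5 animals. The labels name no treatment, transgene or deletion for either group, and by the study's account the pools of one age came from different animals. Differences are given as log2 fold changes of ISC_22mth over ISC_2mth from edgeR's quasi-likelihood test, and FDR is its Benjamini-Hochberg adjusted p over all 13692 genes kept, with 0.05 as the threshold.

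Secretory and membrane proteins fold in the ER, where chaperones hold them and protein disulfide isomerases form their disulfide bonds. Proteins that fail to fold are carried back to the cytosol for degradation (ER-associated degradation, ERAD). When unfolded proteins build up, the sensors IRE1, ATF6 and PERK respond: IRE1 splices the Xbp1 mRNA, ATF6 is cut to a transcription factor, and PERK phosphorylates the translation factor eIF2α. Phosphorylated eIF2α lowers translation in general and favours that of ATF4, and since other kinases phosphorylate the same site after amino acid shortage, viral RNA or haem deficiency, this branch is called the integrated stress response (ISR). In the intestine the response is best known from Paneth and goblet cells, which secrete large amounts of protein. The sort bears on it directly, because one of the surface markers was GRP78, the protein of Hspa5, and cells of both ages were gated as GRP78low.

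The libraries held between 11662654 and 15975698 counts, of which 62.6% to 73.8% fell on mitochondrially encoded genes, a share that was higher in both old pools. Levels are given as CPM (read counts relative to the TMM-scaled library size), and 3 counts amounted to between 0.199 and 0.246 CPM in a library, as a bound on counting error only. All 8 listed stem cell genes, Lgr5, Ascl2 and Olfm4 among them, were expressed, and their summed level was 2007 and 1868 CPM in the young pools and 1703 and 1890 CPM in the old ones, most of it Olfm4. None of the 8 was called, and their median log2 fold change was -0.22. In 4 of them (Lgr5, Axin2, Sox9 and Tnfrsf19, 50.0%, against 23.6% of all genes) both old pools were below both young ones. Ascl2 had the reverse order, with 42.5 and 43.6 CPM in young and 54.1 and 53.9 CPM in old pools (log2 fold change 0.33, edgeR FDR = 0.2). Markers of other epithelial cells were also present. The 7 Paneth cell markers, led by Lyz1, summed to 936 and 720 CPM in the young pools, 2074 CPM in ISC_22mth replicate 1 and 805 CPM in ISC_22mth replicate 2, so that one old pool stood apart in the sum. In 2 of the 7 (28.6%, against 24.0% of all genes) both old pools were above both young ones, and these genes were called higher. They were Defa17 (41.5 and 35.1 CPM against 115 and 50.5 CPM, edgeR FDR = 0.016) and Defa24 (266 and 199 CPM against 584 and 268 CPM, edgeR FDR = 0.046). The 8 goblet cell markers ranged between 1948 and 2660 CPM without separating the ages, whereas the 7 enterocyte markers were at 226 and 344 CPM in the young and 672 and 558 CPM in the old pools. The 9 leukocyte markers summed to 11.0 and 13.6 CPM against 20.8 and 21.3 CPM, nearly all of it Itgam and with 4 of the 9 at 0 in every library. Itgam was called higher (log2 fold change 0.78, edgeR FDR = 0.03). The 5 plasma cell markers summed to at most 1.59 CPM, with 2 of them at 0 in every library. Summed levels of the other lists were between 27.3 and 129 CPM for the 7 enteroendocrine markers, 2.90 and 4.51 CPM in young against 8.25 and 5.32 CPM in old pools for the 5 tuft cell markers, of which Dclk1 was called higher (log2 fold change 3.09, edgeR FDR = 0.026), and between 0.454 and 1.33 CPM for the 5 stromal and endothelial markers.

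Between the ages, 1 of the 36 genes passed the threshold: Pdia3, a protein disulfide isomerase, was higher in old ISCs, and no member was called lower. Of the 36, 34 passed the filter, which asked for over 5 reads and over 1 CPM in any pool. The background among all genes kept was 2.26% called in either direction, 1.63% called higher and 0.628% called lower, so 1 call among 34 was near it. Before adjustment, 16.9% of all genes had a p under 0.05. Among the members this held for 5 that were higher in old ISCs (Pdia3, Pdia4, Atf4, Psat1 and Dnajc3) and for 2 that were lower (Mthfd2 and Sesn2). Sesn2 passed the filter through the young pools only, the group where it was higher. The log2 fold change was above 0 for 24 of the 34 members (70.6%), compared with 49.5% of all genes, and its median was 0.10, compared with -0.0049 over all genes. Without ISC_22mth replicate 1 the members' median was -0.015. These directions are relative to TMM scaling. With total counts as the scale, the median of all genes moved to -0.50 and that of the members to -0.39, and Pdia3 was at -0.014. On that scale 0 of the 34 members were called higher and 11 lower. Of all 13692 genes, 96 were called higher and 4554 lower on it. The lower old pool exceeded the higher young pool in 9 members (26.5%), where 24.0% of all genes did so, and the reverse order was seen in 5 members (14.7%), where 23.6% of all genes did so. In bulk RNA of sorted cells, more RNA per cell and more cells of a type that holds the RNA cannot be told apart.

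**Figure D1:**
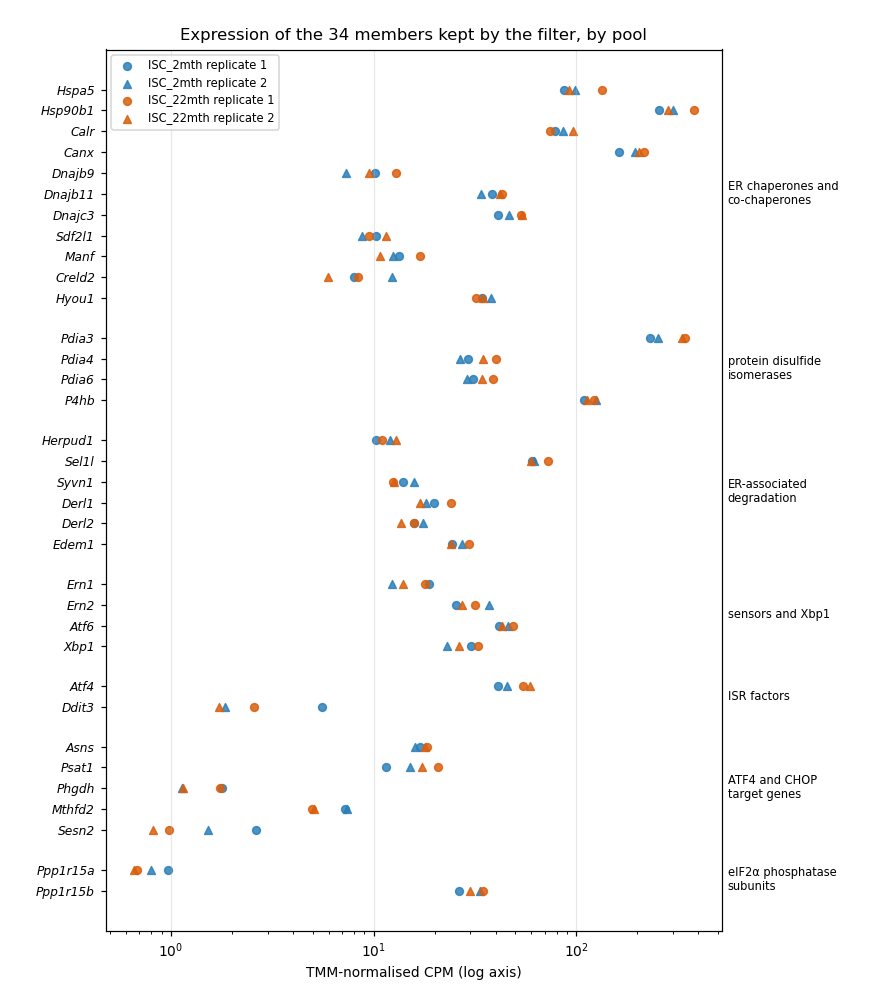
Level of each of the 34 members kept, as TMM-normalised CPM on a log axis, in the 2 young (blue) and 2 old (orange) pools (circle, replicate 1, triangle, replicate 2), grouped by role. The orange points of Pdia3 lie at 342 and 332 CPM, right of the blue points at 231 and 254 CPM, and most other members overlap.

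The members spanned a wide range of levels. Per kilobase of exon, which allows genes to be compared, Pdia3 was the highest member at 77.3 CPM per kb in young and 107 CPM per kb in old ISCs. Hsp90b1 (GRP94, the HSP90 of the ER) followed at 68.7 and 82.2 CPM per kb, then Canx, P4hb, Calr, Hspa5 and Atf4 at between 18.4 and 44.5 CPM per kb. In young ISCs the spread of the pools did not separate Canx at 38.0 CPM per kb from P4hb at 41.0 CPM per kb. In old ISCs they were at 44.5 and 41.1 CPM per kb. At the other end, Chac1 and Trib3, stress-induced targets of ATF4 and CHOP, were close to silent, with 0, 0, 0 and 1 counts of Chac1 and 0, 1, 0 and 3 counts of Trib3 in the libraries. Sesn2, Phgdh and Ppp1r15a lay between 0.227 and 0.597 CPM per kb in either age. Exon lengths are those of all annotated transcripts of a gene together, which lowers the level of genes with many isoforms.

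All 11 ER chaperones and co-chaperones were expressed in ISCs of both ages, and none passed the threshold. Their summed level was 738 and 838 CPM in the young pools and 979 and 844 CPM in the old pools, most of it from Hsp90b1, Canx, Hspa5 and Calr, while Dnajb9, Sdf2l1, Manf and Creld2 lay between 5.98 and 16.9 CPM. Their log2 fold change was above 0 for 9 of 11, with a median of 0.23, and for 3 of them (27.3%, against 24.0% of all genes) each old pool exceeded each young one, namely Canx, Dnajb11 and Dnajc3. Hspa5 encodes BiP (GRP78), the HSP70 chaperone of the ER lumen that also holds the stress sensors inactive. It was at 86.6 and 98.1 CPM in the young pools and at 134 and 92.4 CPM in the old pools. ISC_22mth replicate 1 was the highest library and ISC_22mth replicate 2 lay between the young ones, so the groups overlapped. The log2 fold change of Hspa5 was 0.29 ± 0.15 (SE, n = 2 pools per age, edgeR FDR = 0.33), with a 95% interval from -0.018 to 0.61, in cells that had been gated for low surface GRP78 at both ages. It was 0.0021 without ISC_22mth replicate 1 and 0.54 without ISC_22mth replicate 2, where the edgeR FDR was 0.0029.

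The co-chaperone Dnajc3 (p58IPK), a partner of BiP that also restrains PERK, had the lowest p of these genes. It stood at 40.9 and 46.5 CPM in young and at 53.2 and 54.2 CPM in old pools. The groups did not overlap, and the log2 fold change was 0.30 ± 0.13 (SE, n = 2 pools per age, edgeR FDR = 0.26). Hsp90b1 followed the pattern of Hspa5, with 255 and 300 CPM in the young pools and 379 and 283 CPM in the old ones. Only ISC_22mth replicate 1 was above the young pools, and the log2 fold change was 0.26 ± 0.13 (SE, edgeR FDR = 0.34), becoming 0.034 without that pool. The exons of Hsp90b1 share 9.75% of their 50-base stretches with other genes, which makes part of its count uncertain. The lectin chaperones, which bind glycoproteins together with Pdia3, did not pass the threshold: Canx had a log2 fold change of 0.23 ± 0.12 (SE) and Calr one of 0.049 ± 0.14 (SE). Among the remaining co-chaperones and small ER proteins, Dnajb9 (ERdj4) had 0.36 ± 0.23, Dnajb11 (ERdj3) 0.24 ± 0.14, Sdf2l1 0.14 ± 0.21 and Manf 0.099 ± 0.21 as log2 fold changes with their SE. The only negative values were those of Hyou1 (GRP170), a nucleotide exchange factor of BiP, at -0.12 ± 0.14 (SE), and of Creld2 at -0.49 ± 0.25 (SE, edgeR FDR = 0.33). Creld2 had 8.00 and 12.3 CPM in the young and 8.40 and 5.98 CPM in the old pools, which overlapped, and its log2 fold change was -0.16 without ISC_2mth replicate 2 and -0.77 without ISC_2mth replicate 1.

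Protein disulfide isomerases held the one call. Pdia3 (ERp57, at chr2:121413775-121438687 on the plus strand of GRCm38) works with calnexin and calreticulin on glycoproteins, and it also assists the loading of MHC class I molecules. Its counts were 3354 and 3827 in the young and 4520 and 4057 in the old pools, equal to 231 and 254 CPM against 342 and 332 CPM. Both old pools were above both young pools, and the gap between the ages was wider than the distance within either. The means were 242 ± 15.7 CPM (SD, n = 2) at 2 months and 337 ± 6.92 CPM (SD, n = 2) at 22 months, a log2 fold change of 0.48 ± 0.11 (SE, edgeR FDR = 0.027) with a 95% interval from 0.24 to 0.71. Its exons share 18 bases with Catsper2 on the opposite strand and 0.0314% of their 50-base stretches with other genes. The call was made in 10 of 14 alternative analyses. It was lost without either young pool (0.41, edgeR FDR = 0.31, without ISC_2mth replicate 1, and 0.54, edgeR FDR = 0.058, without ISC_2mth replicate 2), with offsets for GC content and length (0.39, edgeR FDR = 0.098) and when libraries were scaled by total counts (-0.014, edgeR FDR = 0.94). Without ISC_22mth replicate 1, the pool with the high Paneth cell markers, the log2 fold change of Pdia3 was 0.46 (edgeR FDR = 0.009). The sum of the 7 enterocyte markers was also higher in both old pools (226 and 344 CPM against 672 and 558 CPM). For 4 of the 7 (57.1%, against 24.0% of all genes) each old pool exceeded each young one, while Apoa1, Apoa4 and Lct overlapped. Fabp1, Fabp2 and Sis were called higher at log2 fold changes of 2.35, 0.93 and 1.38, where 1.63% of all genes were called higher. The Paneth cell markers Defa17 and Defa24, the tuft cell marker Dclk1 and Itgam of the leukocyte list were called higher too. The part of any of these cells in the value of Pdia3 was not tested.

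The other isomerases had smaller values, and none of them passed the threshold. Pdia4 (ERp72) was at 29.2 and 26.6 CPM in young and at 40.3 and 34.7 CPM in old pools. Its groups did not overlap, and the log2 fold change was 0.43 ± 0.15 (SE, edgeR FDR = 0.13). For Pdia6 (P5), which also binds IRE1, the levels were 31.0 and 28.9 CPM against 38.8 and 34.1 CPM, again without overlap, with a log2 fold change of 0.28 ± 0.14 (SE, edgeR FDR = 0.32). P4hb, the founding isomerase of the family and a subunit of prolyl hydroxylase, had 109 and 125 CPM against 122 and 113 CPM. Its groups overlapped, and its log2 fold change of 0.0041 ± 0.12 (SE) had a 95% interval from -0.25 to 0.26. The difference between P4hb and Pdia3 was not tested. The summed level of all 4 isomerases was 401 and 434 CPM in young and 543 and 514 CPM in old pools.

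**Figure D2:**
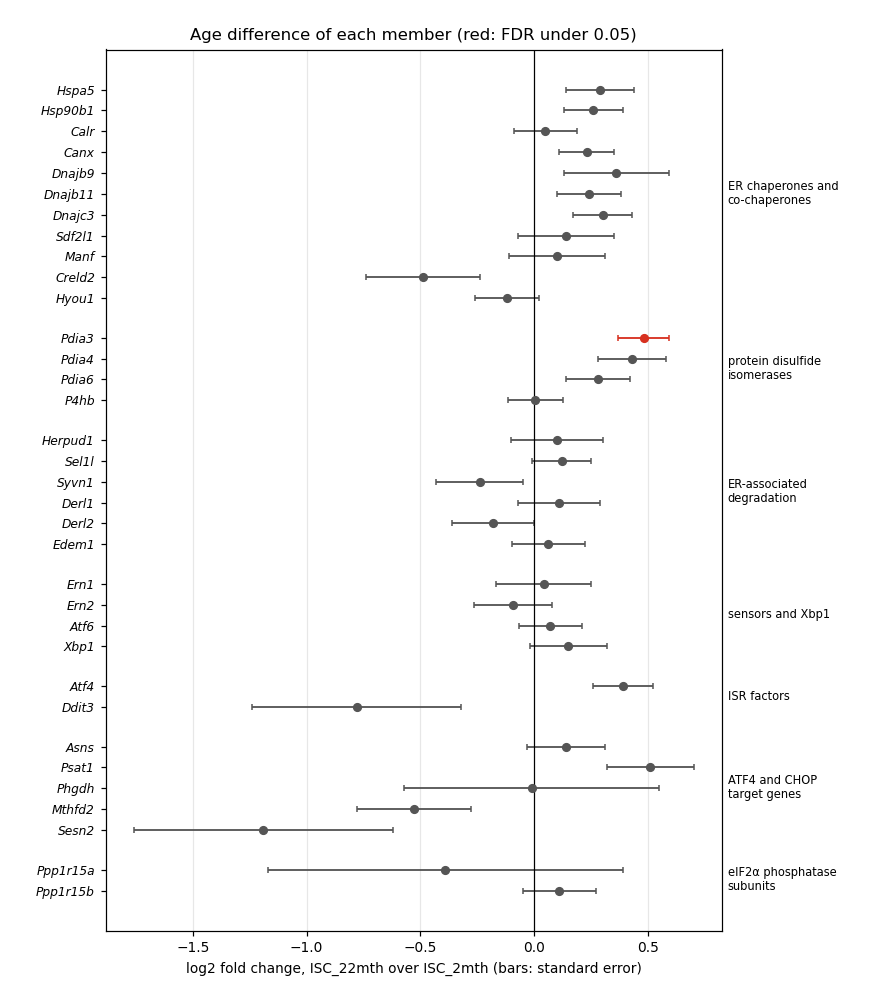
Log2 fold change of ISC_22mth over ISC_2mth (points) with its standard error (bars) for the 34 members kept, by role, with the called gene in red. Pdia3 at 0.48 is the only red point, and the values of the 11 chaperones run from -0.49 to 0.36.

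Promoter sequences were read for these genes, because the XBP1 and ATF6 arms act on short, well described elements, which shows how many members carry them. RefSeq windows of 300 bases (GRCm38.p6, 250 before and 50 after the annotated start) were found for 30 of the 36 members, as 32 windows. The ER stress response element (ERSE: CCAAT, 9 bases of any kind, CCACG, searched on both strands) was in 8 of the 32 member windows (25%) and in 39 of 32851 windows of all genes (0.119%). A match is a description of the letters, not evidence of binding. The 9 matches of these 8 genes follow, written 5′ to 3′ along the gene with the whole element in capitals, so that an element on the opposite strand begins with CGTGG and ends with ATTGG. They lie at chr2:34772019-34772049 (Hspa5), chr10:86705632-86705662 and chr10:86705527-86705557 (Hsp90b1, minus-strand gene), chr8:84847069-84847099 (Calr, minus), chr11:50325794-50325824 (Canx, minus), chr14:118937821-118937851 (Dnajc3), chr12:17266485-17266515 (Pdia6), chr15:88819514-88819544 (Creld2) and chr19:6046526-6046556 (Syvn1), the genes without a remark being on the plus strand.
Hspa5: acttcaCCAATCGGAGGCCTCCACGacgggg
Hsp90b1 distal: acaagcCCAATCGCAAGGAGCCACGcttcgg
Hsp90b1 proximal: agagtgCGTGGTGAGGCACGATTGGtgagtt
Calr: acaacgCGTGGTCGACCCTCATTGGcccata
Canx: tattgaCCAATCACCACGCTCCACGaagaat
Dnajc3: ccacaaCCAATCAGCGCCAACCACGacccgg
Pdia6: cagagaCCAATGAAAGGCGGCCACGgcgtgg
Creld2: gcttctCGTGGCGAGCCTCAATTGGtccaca
Syvn1: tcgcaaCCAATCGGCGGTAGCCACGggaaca

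The genes with an ERSE had values of both signs. Among the genes just printed, the log2 fold changes ran from 0.30 for Dnajc3 to -0.49 for Creld2, and both ends of that range carried a complete element. The shorter ERSE-II (ATTGG, 1 base, CCACG, either strand) was in the windows of Dnajb11 and Herpud1 and in 12 of all 32851 windows (0.0365%), and it is shown with the element in capitals from chr16:22857846-22857868 and chr8:94386371-94386393, both on the plus strand.
Dnajb11: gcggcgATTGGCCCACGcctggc
Herpud1: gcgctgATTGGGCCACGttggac

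For the 10 members with an ERSE or ERSE-II the log2 fold changes had their median at 0.23, and 8 of 10 were above 0. The 17 members kept whose windows held neither these nor the element of ATF4 had theirs at 0.06, and 11 of 17 were above 0, a comparison given as a description.

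The window of Pdia3, the one called member, held no complete ERSE. It held a single place, starting at position -29 from the annotated start, that met 9 of the 10 fixed bases. At least 9 of the 10 were met in 14 of the 32 member windows (43.8%), the 8 with a complete ERSE and 6 others (Ddit3, Derl2, Herpud1, Pdia3, Pdia4 and Sel1l), and in 1.5% of all windows. Without the complete elements, 9 of the 10 were met in 6 of the 32 member windows and in 455 of all 32851. The window of Pdia3 is printed up to the start beside the window of Hspa5, which has a complete ERSE starting at position -65, with these elements in capitals. The 250 bases before the start are at chr2:121413652-121413901 and chr2:34771840-34772089, both on the plus strand, and 75.6% and 62.4% of them are G or C. The same window of Hspa5 also holds the core of the UPR element (TGACGTG, either strand), which is in 2.01% of all windows and in no other member window.
Pdia3: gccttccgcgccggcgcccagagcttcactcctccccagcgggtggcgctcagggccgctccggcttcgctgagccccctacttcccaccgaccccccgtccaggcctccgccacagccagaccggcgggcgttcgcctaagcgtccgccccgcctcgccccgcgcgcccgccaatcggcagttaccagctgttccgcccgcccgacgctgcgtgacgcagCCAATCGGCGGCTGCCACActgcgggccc
Hspa5: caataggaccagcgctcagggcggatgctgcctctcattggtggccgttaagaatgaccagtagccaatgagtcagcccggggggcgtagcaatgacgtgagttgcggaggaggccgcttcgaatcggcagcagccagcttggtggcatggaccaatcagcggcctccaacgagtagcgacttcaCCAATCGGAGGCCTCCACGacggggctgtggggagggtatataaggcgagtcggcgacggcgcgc

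All 6 ERAD members were expressed in ISCs of both ages, and none passed the threshold. Their median log2 fold change was 0.081, between -0.24 and 0.12, and their summed level was 145 and 152 CPM in young and 166 and 140 CPM in old pools. Syvn1, the ubiquitin ligase HRD1 at the centre of the pathway, was at 13.9 and 15.8 CPM in young and at 12.5 and 12.6 CPM in old pools. Both old pools were lower, and the log2 fold change was -0.24 ± 0.19 (SE, edgeR FDR = 0.55). Its partner Sel1l, which holds the ligase complex together, was at 60.4 and 61.6 CPM against 72.6 and 59.9 CPM, with overlapping groups and a log2 fold change of 0.12 ± 0.13 (SE). Derl2, a membrane protein of the retrotranslocation channel, had 15.9 and 17.5 CPM against 15.8 and 13.6 CPM. The old pools were just below the young ones, and the log2 fold change was -0.18 ± 0.18 (SE, edgeR FDR = 0.65). Its relative Derl1 had a log2 fold change of 0.11 ± 0.18 (SE), Herpud1, which recruits the ligase to its substrates, one of 0.10 ± 0.20 (SE), and Edem1, a lectin that hands over misfolded glycoproteins, one of 0.062 ± 0.16 (SE).

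No difference between the ages was detected in the RNA of the sensors. Xbp1, whose spliced form encodes the transcription factor of the IRE1 arm, was at 30.4 and 22.9 CPM in the young and at 32.8 and 26.4 CPM in the old pools. The young and old values interleaved, and the log2 fold change was 0.15 ± 0.17 (SE, edgeR FDR = 0.69). Gene counts do not separate spliced from unspliced Xbp1, so splicing by IRE1 was not measured. Ern1 (IRE1α) was at 18.7 and 12.3 CPM against 17.9 and 13.9 CPM, with a log2 fold change of 0.041 ± 0.21 (SE, edgeR FDR = 0.94). Ern2 (IRE1β), the form restricted to mucosal epithelium and best known from goblet cells, had 25.5 and 37.3 CPM against 31.5 and 27.4 CPM, and a log2 fold change of -0.093 ± 0.17 (SE, edgeR FDR = 0.83). For both forms of IRE1 the young pools enclosed the old ones. Per kilobase of exon Ern2 was higher than Ern1 in both ages, with 10.6 and 9.92 CPM per kb against 1.89 and 1.94 CPM per kb. Atf6 was at 41.6 and 46.0 CPM against 48.7 and 43.2 CPM, with a log2 fold change of 0.071 ± 0.14 (SE).

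The transcription factors of the ISR had values of opposite sign, and neither passed the threshold. Atf4, the central factor of the response, is controlled mainly through its translation. Its RNA was at 41.3 and 45.3 CPM in young and at 54.3 and 59.2 CPM in old pools, without overlap. The log2 fold change was 0.39 ± 0.13 (SE, n = 2 pools per age, edgeR FDR = 0.13), with a 95% interval from 0.12 to 0.67 and edgeR, limma or DESeq2 FDR values between 0.053 and 0.62 over the alternatives. Ddit3 encodes CHOP, the factor of prolonged ER stress. It had 81, 28, 34 and 21 counts, or 5.59 and 1.86 CPM in young and 2.57 and 1.72 CPM in old pools, so that ISC_2mth replicate 1 alone was high. Its log2 fold change was -0.78 ± 0.46 (SE, edgeR FDR = 0.41), and 0.21 without that pool. The name Ddit3 matches more than 1 gene of the annotation used here, so its count is uncertain.

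Targets of ATF4 and CHOP had values of both signs. Of the 7 genes, 5 were kept by the filter, and none was called. Psat1, a transaminase of serine synthesis, was at 11.5 and 15.1 CPM in young and at 20.7 and 17.3 CPM in old pools. Its groups did not overlap, with a log2 fold change of 0.51 ± 0.19 (SE, edgeR FDR = 0.17). Mthfd2, the mitochondrial folate enzyme, was at 7.24 and 7.36 CPM in young and at 4.99 and 5.08 CPM in old pools. Its log2 fold change was -0.53 ± 0.25 (SE, edgeR FDR = 0.28). Sesn2, a leucine sensor and inhibitor of mTORC1, had 38, 23, 13 and 10 counts in ISC_2mth replicates 1 and 2 and ISC_22mth replicates 1 and 2, or 2.62 and 1.52 CPM against 0.984 and 0.819 CPM. The groups did not overlap, and the log2 fold change of Sesn2 was -1.19 ± 0.57 (SE, edgeR FDR = 0.29), with a 95% interval from -2.37 to -0.0048. Sesn2 passed the filter through the young pools only, the group where it was higher, so its being kept depended on that direction. Asns, the asparagine synthetase, had a log2 fold change of 0.14 ± 0.17 (SE). That of Phgdh, the entry enzyme of serine synthesis, was -0.01 ± 0.56 (SE) on at most 26 counts, and 47.8% of its 50-base stretches occur in other genes, so its count is uncertain.

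The C/EBP-ATF response element (CARE: TGATG, 1 base, AA, either strand), the site through which ATF4 is known to act, was in 4 of the 32 member windows (12.5%) and in 3.97% of all windows. The matches were at chr6:7693219-7693238 (Asns, minus-strand gene), chr2:152344033-152344052 (Trib3, minus), chr2:119351043-119351062 (Chac1, plus) and chr8:94386311-94386330 (Herpud1, plus), and they are shown because they join nearly silent targets with expressed ones. The element is in capitals, and where it lies on the opposite strand it begins with TT.
Asns: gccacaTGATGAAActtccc
Trib3: tcaggtTTACATCAgccggg
Chac1: ctgccgTTGCATCActcctg
Herpud1: ggcgggTTGCATCAgcccgc

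Asns and Herpud1, the members with this element that were kept, had log2 fold changes of 0.14 and 0.10. Psat1, Mthfd2 and Sesn2, the targets with the largest differences, had no match in their windows, which says nothing of other sequence.

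The subunits that guide the eIF2α phosphatase differed in level but not detectably with age. Ppp1r15a (GADD34), the stress-induced subunit, had 14, 12, 9 and 8 counts, or 0.966 and 0.795 CPM in young and 0.681 and 0.655 CPM in old pools. The old pools were below the young ones, but with so few counts the log2 fold change of -0.39 ± 0.78 (SE, edgeR FDR = 0.85) had a 95% interval from -2.03 to 1.25. Ppp1r15b (CReP), the constitutive subunit, was at 26.4 and 33.6 CPM against 34.6 and 29.9 CPM, with overlapping groups and a log2 fold change of 0.11 ± 0.16 (SE, edgeR FDR = 0.79).

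One old pool carried much of the spread among the members. ISC_22mth replicate 1 was the highest of the 4 libraries for 17 of the 34 members (50.0%), whereas it was the highest for 25.3% of all genes. The median log2 ratio of the members to their mean over the 4 libraries was 0.13 in that pool and between -0.086 and -0.057 in the other pools. Hspa5, Hsp90b1, Dnajb9, Manf and Derl1 were highest there, with ISC_22mth replicate 2 within or below the range of the young pools. It is also the pool in which the Paneth cell markers summed to 2074 CPM, with Lyz1 at 750 CPM against between 204 and 311 CPM elsewhere, and their part in the members' values was not tested. The members' median was 0.21 without ISC_22mth replicate 2. Without ISC_22mth replicate 1, 1 of the 34 members was called (Pdia3), where 4.80% of all genes were called. Without ISC_22mth replicate 2 there were 5 (Hspa5, Hsp90b1, Pdia3, Pdia4 and Psat1), where 5.22% of all genes were called. No member was called without ISC_2mth replicate 1 or without ISC_2mth replicate 2, where 1.15% and 2.17% of all genes were.

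**Figure D3:**
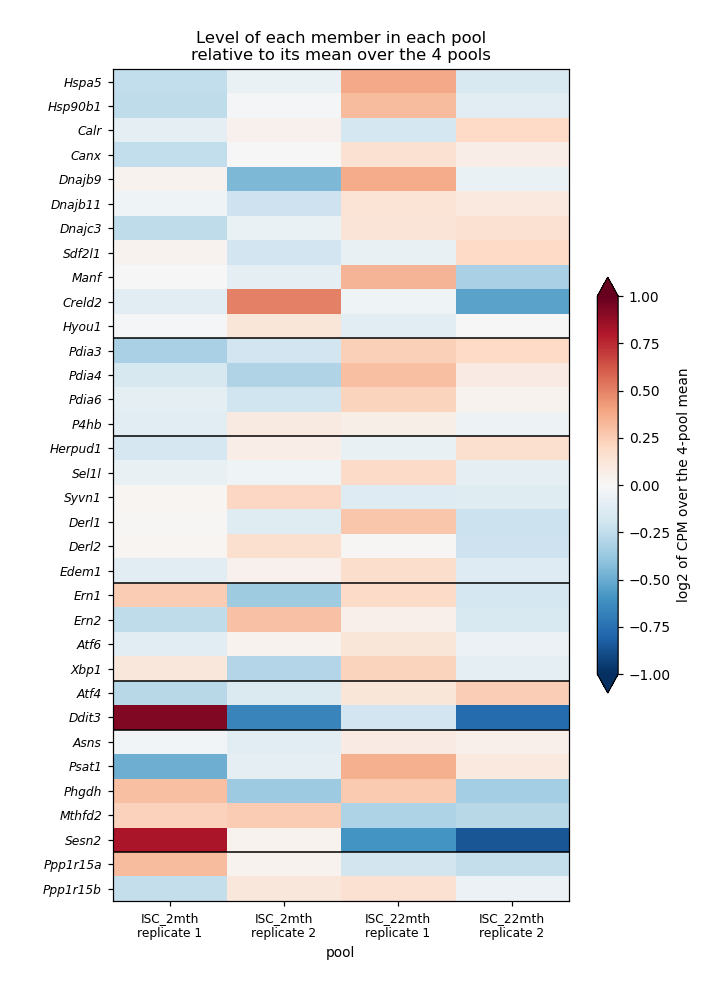
Log2 ratio of each member's CPM to its mean over the 4 pools (color), with members in rows grouped by role and pools in columns. The column of ISC_22mth replicate 1 is the reddest, with a median of 0.13, and Pdia3, Pdia4, Dnajc3 and Atf4 are red in both old pools.

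**Figure D4:**
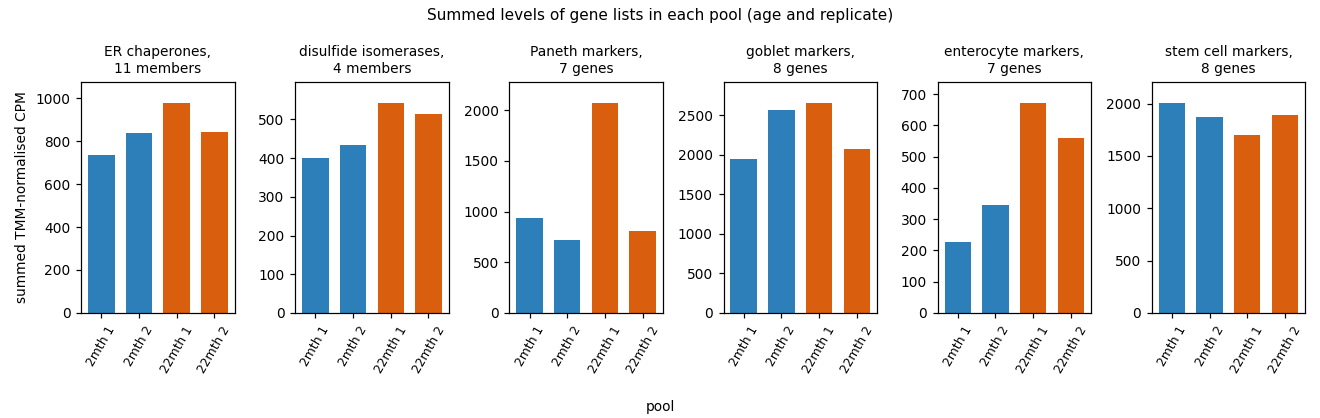
Summed TMM-normalised CPM of gene lists in each pool, young in blue and old in orange, each panel with its own axis from 0. The Paneth cell markers reach 2074 CPM in ISC_22mth replicate 1, the pool in which the chaperones are also highest at 979 CPM, while the isomerases are at 543 and 514 CPM in both old pools.

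A wider list of 87 other genes of the same pathways was read in the same fit, and 84 were kept. Of these, 1 was called higher and 2 lower, where 1.63% of all genes were called higher and 0.628% lower. The log2 fold change was above 0 for 47 of 84 (56.0%), compared with 49.5% of all genes, and its median was 0.042. Before adjustment, a p under 0.05 was found for 11 of them with a higher and 4 with a lower level at 22 months, where 16.9% of all genes had one. The gene called higher was Sec61b (chr4:47474658-47483242, plus strand), a small subunit of the channel through which proteins enter the ER. It had 78 and 93 counts in young and 146 and 127 counts in old pools, or 5.38 and 6.16 CPM against 11.0 and 10.4 CPM. The groups were well apart, and the log2 fold change was 0.89 ± 0.23 (SE, edgeR FDR = 0.042). Other genes share 17.4% of its 50-base stretches, so the count is in part uncertain. The call of Sec61b was made in 8 of 14 alternatives. It was lost without ISC_2mth replicate 1, ISC_2mth replicate 2 or ISC_22mth replicate 1, with filterByExpr, with DESeq2 and with total counts as the scale. When 1 pool was left out, the log2 fold change of Sec61b was between 0.80 and 0.99. Among the 12 genes of the translocon and signal peptidase, 9 had values above 0 and the median was 0.28, while Sec61a1, the pore subunit, had 45.9 and 45.9 CPM in young and 40.5 and 38.1 CPM in old pools.

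Both genes called lower were among the 27 kept of the list of other ISR and ATF4 targets. Ddit4 (REDD1, chr10:59949669-59951834, minus strand), an inhibitor of mTORC1 induced by several stresses and by glucocorticoids, was at 57.1 and 53.8 CPM in young and at 33.2 and 41.8 CPM in old pools. Both old pools were lower, with a log2 fold change of -0.56 ± 0.14 (SE, edgeR FDR = 0.04). Slc7a5 (LAT1, chr8:121881150-121907694, minus strand), the transporter of large neutral amino acids, was at 17.0 and 16.4 CPM in young and at 9.69 and 10.2 CPM in old pools. Its replicates were close and its groups apart, with a log2 fold change of -0.75 ± 0.19 (SE, edgeR FDR = 0.04). Each of these calls was made in 9 of 14 alternatives. Neither was made without ISC_22mth replicate 1, ISC_2mth replicate 1 or ISC_2mth replicate 2, nor with DESeq2 or with offsets for GC content and length. When 1 pool was left out, the log2 fold change was between -0.74 and -0.40 for Ddit4 and between -0.78 and -0.70 for Slc7a5. The 27 other ISR and ATF4 targets kept, Ddit4 and Slc7a5 included, had log2 fold changes around a median of -0.15, and 10 were above 0.

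None of the kinases of eIF2α passed the threshold. Eif2ak3 (PERK), the kinase of the ER, was at 4.42 and 6.23 CPM in young and 3.71 and 5.81 CPM in old pools, with a log2 fold change of -0.17 ± 0.30 (SE, edgeR FDR = 0.83). Eif2ak4 (GCN2), the kinase of amino acid shortage, had 11.0 and 7.42 CPM against 8.48 and 8.27 CPM and a log2 fold change of -0.13 ± 0.23 (SE). Eif2ak1 (HRI), the haem-regulated kinase, had 20.4 and 26.7 CPM against 24.2 and 32.8 CPM and a log2 fold change of 0.27 ± 0.18 (SE). Eif2ak2 (PKR), the kinase activated by double-stranded RNA, had 34.6 and 33.9 CPM against 50.0 and 32.3 CPM and a log2 fold change of 0.27 ± 0.17 (SE). Without ISC_22mth replicate 2, Eif2ak2 was called higher (0.55, edgeR FDR = 0.015), and with total counts as the scale Eif2ak4 was called lower (-0.64, edgeR FDR = 0.048). The groups of all 4 kinases overlapped. Atf3, a stress-induced repressor and early response gene, had 20, 9, 11 and 5 counts and a log2 fold change of -0.65 ± 0.81 (SE, edgeR FDR = 0.74).

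**Figure D5:**
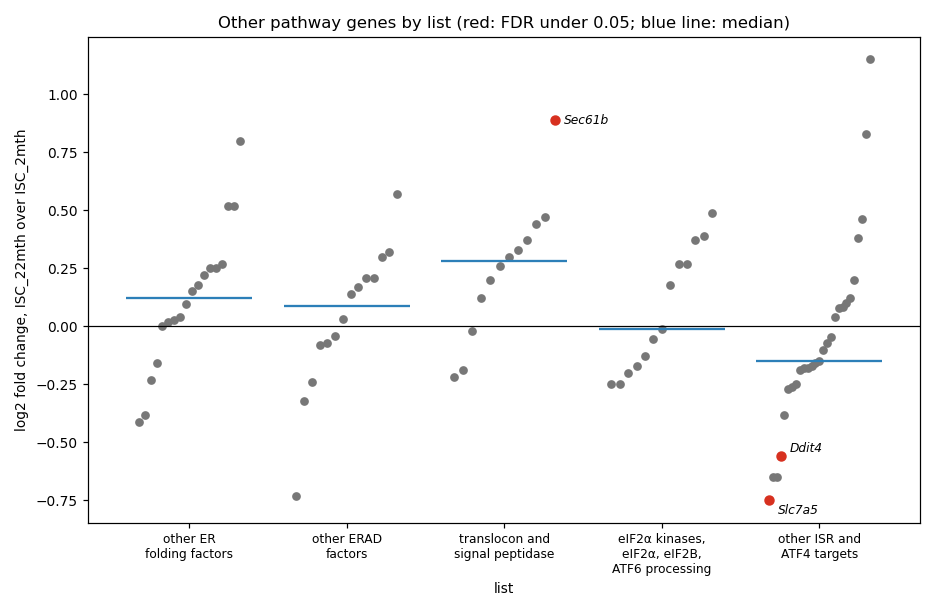
Log2 fold change of ISC_22mth over ISC_2mth for the 84 other pathway genes kept, by list, with each list's median as a blue line. The called genes are red: Sec61b at 0.89, Ddit4 at -0.56 and Slc7a5 at -0.75.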

How the data were processed

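ISCs had been sorted by surface markers (positive for EPCAM and CD166, high for CD44 and EPHB2, medium for CD24, low for GRP78, and without CD31 or CD45) and 25 ng of RNA per pool amplified. The authors trimmed reads with Trimmomatic 0.30, aligned them with STAR 2.4.2a to GRCm38 and counted exonic reads of GENCODE vM15 genes with featureCounts, and the deposited values are raw counts per gene. The strand setting and the treatment of multi-mapping reads are not given in the sources used here, so reads of overlapping genes cannot be assigned to a strand.

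Genes were kept if any pool had over 5 reads and over 1 CPM, counts were scaled by TMM, and ages were compared by edgeR 4.0.16 (R 4.3.3; glmQLFit, glmQLFTest, two-sided, no covariate). Each SE is the log2 fold change over the root of F. Alternatives were RLE factors, total counts, TMM without mitochondrial genes, no filter, filterByExpr, limma 3.58.1 voom with quality weights, edgeR's likelihood ratio test, DESeq2 1.42.0, a replicate block, GC and length offsets (lowess, span 0.3) and leaving out each pool. Positions, lengths and GC content came from GENCODE vM21, matched by symbol (47982 of 52459 names), and promoters from RefSeq. Replicates differed by more than counting noise (chi-square per gene 10.3 and 7.53), with a common biological coefficient of variation of 0.139. The members and lists were chosen with earlier results of these data known. Named in full were members called, the 2 of lowest p per role, Hspa5, Atf4, Ddit3, Xbp1, Ern1 and Ern2, and, of the other genes, those called, the eIF2α kinases and Atf3. The 9-of-10 form of the ERSE and the other members and genes given with values in every pool were chosen after their values were seen.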

Additional observations from a re-analysis of the deposited data

How the results depend on the processing

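The call of Pdia3 was made in 10 of 14 alternatives, and 19 of the 34 members had the same sign whichever pool was left out. With total counts as the scale the median of all genes was -0.50 and that of the members -0.39. Called were 11 of 34 members, 30 of 84 other pathway genes and 4650 of 13692 genes in all. The sign of all 34 members relative to all genes was kept. The shift by itself moves values between 0 and its size below 0, and these log2 fold changes became negative: Hspa5 -0.20, Hsp90b1 -0.23, Calr -0.44, Canx -0.26, Dnajb9 -0.14, Dnajb11 -0.26, Dnajc3 -0.19, Sdf2l1 -0.36, Manf -0.40, Pdia3 -0.014, Pdia4 -0.068, Pdia6 -0.21, P4hb -0.48, Herpud1 -0.38, Sel1l -0.37, Derl1 -0.39, Edem1 -0.43, Ern1 -0.47, Atf6 -0.42, Xbp1 -0.35, Atf4 -0.097, Asns -0.36, Ppp1r15b -0.38, Eif2ak1 -0.21 and Eif2ak2 -0.23. Leaving out 1 pool, where a lone pool is assumed to vary like the other age, gave 0 to 5 members, 0 to 10 other pathway genes and 151 to 710 genes called. Ppp1r15a had too few counts to be kept without ISC_2mth replicate 1, so it was fitted only without each of the other pools, where it stayed negative. The sign changed in 14 members, Calr (-0.15 to 0.23), Manf (-0.27 to 0.39), P4hb (-0.09 to 0.10), Herpud1 (-0.015 to 0.22), Sel1l (-0.026 to 0.25), Derl1 (-0.16 to 0.34), Edem1 (-0.098 to 0.21), Ern1 (-0.24 to 0.38), Ern2 (-0.34 to 0.21), Atf6 (-0.017 to 0.16), Xbp1 (-0.038 to 0.37), Ddit3 (-1.38 to 0.21), Phgdh (-0.34 to 0.36) and Ppp1r15b (-0.058 to 0.29), and in Eif2ak2 (-0.079 to 0.55), Eif2ak3 (-0.52 to 0.13) and Eif2ak4 (-0.39 to 0.17). Of the 19 members that kept their sign, 13 moved by over 1.5 times: Hspa5 (0.0021 to 0.54), Hsp90b1 (0.034 to 0.46), Canx (0.10 to 0.36), Dnajb9 (0.12 to 0.62), Dnajb11 (0.15 to 0.33), Sdf2l1 (0.00072 to 0.27), Creld2 (-0.77 to -0.16), Hyou1 (-0.19 to -0.054), Syvn1 (-0.33 to -0.15), Derl2 (-0.29 to -0.075), Asns (0.092 to 0.18), Psat1 (0.33 to 0.72) and Sesn2 (-1.53 to -0.75), as did Eif2ak1 (0.04 to 0.48) and Atf3 (-1.25 to -0.24, also not kept without ISC_2mth replicate 1). Other pathway genes called numbered 5 with no filter, 6 with the likelihood ratio test, 1 with DESeq2 and 1 with GC and length offsets, where 0 members were called, and genes in all numbered 554, 611, 197 and 187. With these offsets some members moved towards 0, among them Hsp90b1 (0.12), Canx (0.11), Dnajb9 (0.17), Syvn1 (-0.094) and Hyou1 (-0.023). Others moved away from 0, among them Ern1 (0.12) and Sdf2l1 (0.20). With the replicate number as a block, 6 other pathway genes and 623 genes were called and no member call changed. The labels do not say that the numbers pair pools, and deviations of same-numbered pools had a correlation of -0.00015. The cause of these differences was not tested. Chac1 and Trib3, with at most 3 counts in a library, did not reach the filter, and they were not called in the fit without a filter.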

Other observations

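Near the threshold among the other pathway genes were Ssr3, a subunit of the translocon-associated protein complex, with 143 and 158 CPM in young and 220 and 190 CPM in old pools (log2 fold change 0.44 ± 0.12, SE, edgeR FDR = 0.059), and Eif2s1, which encodes eIF2α, with 37.2 and 45.1 CPM against 63.7 and 52.1 CPM (0.49 ± 0.14, SE, edgeR FDR = 0.081). The ER thioredoxin Tmx1 had 19.8 and 23.3 CPM against 32.5 and 29.5 CPM (0.52 ± 0.15, SE, edgeR FDR = 0.083). In each of them both old pools were above both young pools. These genes were chosen after their values were seen.

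Of the 7 immediate early genes, whose RNA can change during cell isolation, 2 were called lower in old ISCs, Fosb (log2 fold change -1.55, edgeR FDR = 0.015) and Egr1 (-0.81, edgeR FDR = 0.02). Among all genes 0.628% were called lower. The list summed to 127 and 94.7 CPM in the young and 70.3 and 92.0 CPM in the old pools. This sum was highest in ISC_2mth replicate 1, as were Ddit3, Ddit4 and Sesn2, while Fosb had 5.73 and 6.03 CPM in ISC_2mth replicates 1 and 2. The relation of the immediate early genes to Ddit3, Ddit4 and Sesn2 was not tested.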
